A study of Mus musculus with 22 samples.

Results

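Livers of Fah-/- mice given an agent labelled YC and taken at day 28 were compared with livers of Fah-/- mice taken at day 0, gene by gene. The 2 groups are defined by their labels alone and hold 7 libraries each, 14 of the 22 in the series. The day 0 livers, called D0 here, are labelled Fah-/- and normal liver. The YC livers came from Fah-/- mice into which cells labelled td-Hepatocytes had been transplanted, and which were given YC over the 28 days that followed withdrawal of NTBC. The other 8 livers, called vehicle, had the same transplant and the same withdrawal, with vehicle in place of YC. All 3 groups carry the Fah-/- genotype. YC and D0 livers therefore differ in transplant, NTBC withdrawal, agent and time together, and the parts of these in any difference cannot be told apart. For this reason the vehicle values stand beside the genes on which the results turn. The expansions of YC and td, the strain, age and sex of the mice, the source of the transplanted cells and whether D0 mice were on NTBC are not stated in the labels. The series' design text asks whether YC made transplanted hepatocytes grow by way of dedifferentiation.

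Fah encodes fumarylacetoacetate hydrolase, which ends the breakdown of tyrosine. Without it, reactive tyrosine products build up in hepatocytes, and NTBC, which blocks the earlier enzyme Hpd, keeps them from forming. Adult hepatocytes make serum proteins, bile acids and detoxifying enzymes. Hepatocytes of the fetal liver also make alpha-fetoprotein and fetal growth factors, use other enzymes for glycolysis, and divide.

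The libraries held 50100000 to 82800000 reads or fragments each, as estimated from the steps between low values. Adult liver markers were high in every library, with Alb at 14420 to 51560 RPKM in D0 and YC livers. The values are RPKM, which scale reads to transcript length and library size. Fah itself checks the labels. It ran from 21.1 to 38.8 RPKM in D0 livers, with a median of 28.6, and from 31.5 to 407 RPKM in YC livers, with a median of 128. It was higher in YC livers by 2.15 on the log2 scale (exact two-sided permutation p = 0.00233). The groups overlapped at the library YC 7, at 31.5 RPKM, and YC 6, at 41.3 RPKM, lay just above the D0 range. Vehicle livers held more Fah than YC livers, at 271 to 542 RPKM with a median of 401. The log2 difference YC minus vehicle was -1.61 (adjusted p = 0.00194 in the limma test described below). No D0 liver reached 1 RPKM of Y-linked transcripts (Ddx3y, Eif2s3y, Kdm5d and Uty summed). The libraries YC 1, YC 2 and YC 3 held 17.4 to 31.9 RPKM of them and YC 4 to YC 7 held 0. All 8 vehicle livers carried them, at 5.55 to 35.6 RPKM, so YC and vehicle livers differ in this too. With YC 1, YC 2 and YC 3 alone against the vehicle livers, YC minus vehicle had 5459 calls, 4701 higher and 758 lower. With all YC livers it had 6357 calls, 5587 higher and 770 lower. Values of single genes from that smaller fit are not given here. Each result was also computed without YC 6 and YC 7, and with the 4 YC livers that lack Y-linked transcripts against all D0 livers, and these values are given where the call of a named gene changed or where rises no longer outnumbered falls in a list, or the reverse. YC 4 also carried pancreatic transcripts, with 119 RPKM of the elastase Cela2a against at most 0.807 in the other YC livers. YC 1 and YC 2 were the closest pair of replicates, with a chi-square averaging 2.86 over 148 low genes, more than sampling noise gives. This cannot show whether they are separate animals, since preparation also adds spread. Each was counted as a replicate, as its title gives it.

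Between YC and D0 livers, 6699 of 12537 genes tested (53.4%) passed the test, which was limma's moderated test on log2(RPKM + 0.5) with Benjamini-Hochberg adjusted p under 0.05. Of all genes tested, 41.2% were called higher in YC livers (5162 genes) and 12.3% lower (1537 genes). These shares are the background against which counts of any gene list have to be read. A gene was tested if it reached 0.5 RPKM in at least 7 of the 22 libraries. Genes under this level in every D0 liver passed through day 28 livers alone. Among them were Dlk1, Igf2, Krt20, Mki67, Mpo, Asns, Cldn4, Rbp2, Spink1, Fgfbp1 and Cyp4a12a. Such genes could hardly be called lower, which tilts the counts of their lists to rises. Their adjusted p-values come after this selection and are to be read with it. The median difference over all genes was 0.25 on the log2 scale. The share of the most abundant hepatocyte transcript moved with this shift, and its part in it was not tested. Alb alone made up 5.75% to 9.75% of the summed RPKM in D0 livers and 2.47% to 7.73% in YC livers. When libraries were rescaled by their median ratio over genes, the median difference became -0.02 and 6773 genes (54%) were called and the calls split evenly, with 3372 genes higher (26.9%) and 3401 lower (27.1%). All 1537 genes called lower as deposited were also called lower after rescaling, and 3372 of the 5162 called higher (65.3%) were also called higher. Values below are as deposited, and rescaled values are given by the same rule. In 2961 genes (23.6%) the 7 YC and the 7 D0 values did not overlap, with YC livers higher in 2438 (19.4%) and lower in 523 (4.17%).

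**Figure D1:**
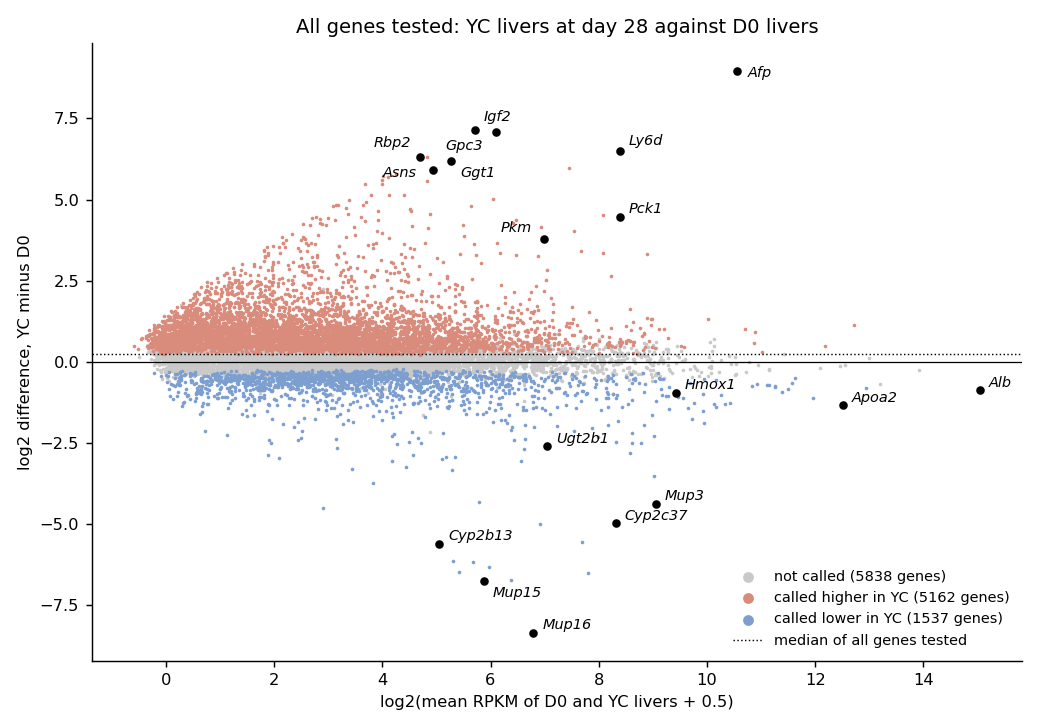
Each point is a gene, with its level on the x axis (log2 of the mean RPKM over D0 and YC livers plus 0.5) and the log2 difference YC minus D0 on the y axis. Afp stands at 8.95 and Mup16 at -8.34, the ends of the range among labelled genes, and the dotted line marks the median of all genes at 0.25.

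The largest rises included transcripts of the fetal liver. Afp, the fetal counterpart of albumin (mm10 chromosome 5, 90490737 to 90508907), had a lowest, median and highest value of 3.05, 4.50 and 8.68 RPKM in D0 livers and of 1246, 2463 and 5795 RPKM in YC livers. Vehicle livers lay between, from 38.1 to 491 RPKM with a median of 179. The 3 groups did not overlap, and YC 1 and YC 2 were the highest. The log2 difference YC minus D0 was 8.95 ± 0.50 (SE, limma adjusted p = 5.16e-12), and YC minus vehicle was 4.15 (adjusted p = 1.6e-06).

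Igf2, a growth factor of fetal tissues (chromosome 7, 142650766 to 142666816), was nearly silent in D0 livers, with 0.122, 0.170 and 0.308 RPKM as lowest, median and highest. In YC livers it had 67.1, 104 and 144 RPKM, and in vehicle livers 0.897 to 47.3 RPKM with a median of 6.84. Every YC liver was above every other liver in the series. The log2 difference was 7.16 ± 0.52 (SE, limma adjusted p = 3.97e-10).

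Gpc3, a surface proteoglycan of hepatoblasts (chromosome X, 52272426 to 52613950), rose from 0.0517, 0.384 and 1.13 RPKM to 50.02, 130 and 216 RPKM, a log2 difference of 7.08 ± 0.33 (SE, limma adjusted p = 3.08e-13). Dlk1, a hepatoblast surface protein, was listed at 0 in most D0 livers, with a highest value of 0.0344 RPKM, and ran from 2.72 to 16.1 RPKM in YC livers. The imprinted gene Peg3 rose by 2.57 and Cd24a, a progenitor surface marker, by 3.06. In each of these genes the YC and D0 livers did not overlap. The fetal liver and oncofetal list had 14 members tested of 20, of which 12 rose, 0 fell and 2 did not pass the test. Its median log2 difference was 2.27, against 0.25 over all genes. The rescaled count was also 12. So was the count without YC 6 and YC 7, where 42% of all genes were called higher and 14.4% lower, and with YC 4 to YC 7 alone, where 32.7% were called higher and 9.12% lower. The members without a call were the desaturase gene Scd2, at -0.09 ± 0.47, and Mest, at 0.25 ± 0.15 (SE). Dlk1 and Igf2 stayed under 0.5 RPKM in every D0 liver and were tested through day 28 livers.

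**Figure D2:**
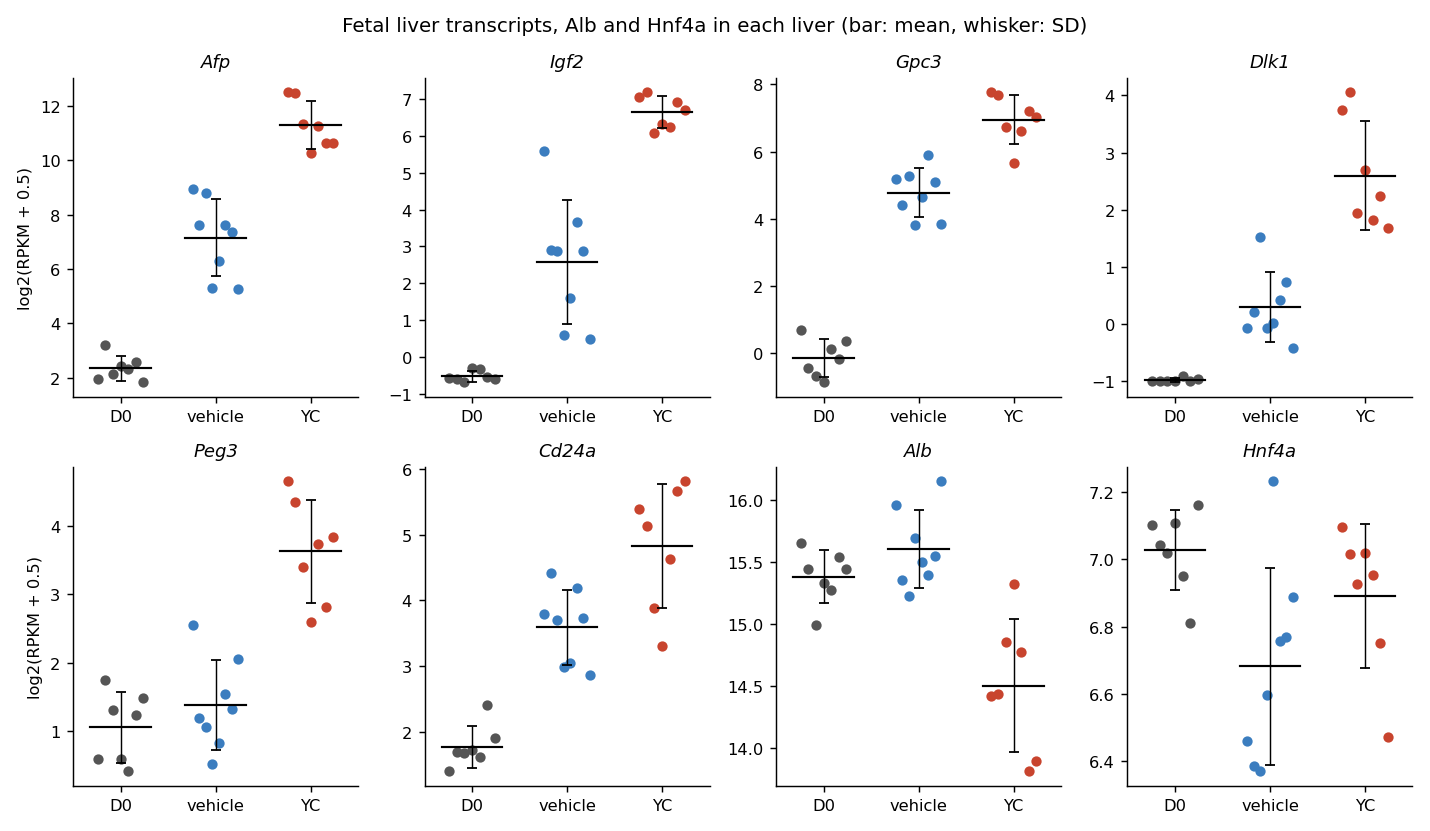
Each point is a liver, placed by log2(RPKM + 0.5), in D0 (7), vehicle (8) and YC (7) livers, with the group mean as a bar and the SD as whiskers. In Afp, Igf2, Gpc3, Dlk1, Peg3 and Cd24a the YC livers lie above all D0 livers, Alb falls with overlap between the groups, and Hnf4a shifts by -0.14.

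Large rises in every YC liver were also seen in 7 further genes. Ly6d, a surface protein of the Ly6 family, rose from 2.84, 5.50 and 12.8 RPKM to 194, 608 and 1215 RPKM, a log2 difference of 6.50. The highest YC livers were YC 6 and YC 7, the libraries with the least Fah. Rbp2, a carrier of retinol, rose by 6.33, the cornified envelope gene Sprr1a by 6.30 and the gamma-glutamyl transferase gene Ggt1, an enzyme of glutathione turnover that is high in fetal liver, by 6.20. Lcn2, an iron-carrier binding protein of neutrophils and inflamed hepatocytes, rose by 5.96, the trypsin inhibitor gene Spink1 by 5.78 and Fgfbp1, which releases fibroblast growth factors from matrix, by 5.73. YC and D0 livers did not overlap in any of these 7 genes. YC livers were also above vehicle livers in each, by 1.27 for Ly6d (limma adjusted p = 0.00605) up to 3.69 for Fgfbp1 (adjusted p = 2.27e-07).

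Epithelial and ductal genes rose along with the fetal ones. Of 17 biliary and progenitor genes tested, 14 rose, 1 fell and 2 were not called, with a median of 1.47. Cldn4, a tight junction protein of duct cells, went from 0.0432, 0.156 and 0.276 RPKM to 6.87, 18.8 and 31.2 RPKM without overlap (log2 difference 4.75 ± 0.33, SE). Krt19, the keratin of bile ducts, rose by 2.86, and Spp1, the matrix protein osteopontin, by 2.33. Spp1 had nearly the same median in YC (179 RPKM) and vehicle livers (179 RPKM), and their difference was 0.01 (limma adjusted p = 0.978). Onecut1, a transcription factor of hepatoblasts, fell by 0.66, a call that was lost without YC 6 and YC 7, at -0.56, and without D0 7, at -0.53. The bicarbonate exchanger gene Slc4a2 was not called at 0.44, but was called at 0.90 without YC 6 and YC 7.

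Of 19 cytoskeletal and keratin genes, 12 rose and 0 fell (median 1.02). Krt20, a keratin of intestinal epithelium, was at most 0.0771 RPKM in D0 livers and had a median of 26.9 and a highest value of 38.3 RPKM in YC livers, without overlap. Krt8, the main hepatocyte keratin, rose by 1.35 and the actin gene Actb by 1.01. Tubb4b, a tubulin, had a difference of 0.21 without a call against D0 but was higher than in vehicle livers by 1.12 (limma adjusted p = 0.000518). Of 14 annexin and S100 genes, 11 rose and 0 fell (median 1.58). The membrane-binding Anxa2 rose by 3.04, Anxa5 by 1.95 and S100a11 by 4.16. S100a10, the partner of Anxa2 and the most abundant member not called, had 301 to 611 RPKM in D0 and 233 to 1305 RPKM in YC livers.

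Mitosis genes rose from very low levels. All 17 mitosis genes tested were called higher in YC livers, with a median of 1.5 against 0.25 over all genes, and 15 of them after rescaling and with YC 4 to YC 7 alone. Mki67, the proliferation marker, had 0.0634, 0.129 and 0.235 RPKM in D0 livers and 0.382, 0.858 and 4.97 RPKM in YC livers. It was tested through its day 28 values, since no D0 liver reached 0.5 RPKM. YC 5, YC 4 and YC 3 were the highest, at 4.97, 2.87 and 2.32 RPKM, and YC 7 the lowest. Its log2 difference was 1.58 ± 0.34 (SE), on a scale that understates the change of such low genes. Bub1b, a spindle checkpoint kinase, rose by 1.29 and Aurka, a spindle pole kinase, by 0.85. Between YC and vehicle livers, 2 mitosis genes were higher in YC livers and 3 lower, against 44.6% and 6.14% of all genes. After rescaling 0 were higher and 6 lower, against 18.6% and 16.6% of all genes. Mki67 differed by -0.25 as deposited (limma adjusted p = 0.547).

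Of 17 DNA replication genes, 10 rose and 0 fell (median 0.95). The helicase subunit Mcm6 went from 3.25, 3.46 and 6.09 RPKM to 13.6, 15.2 and 24.4 RPKM, with YC 5 highest. Pcna, the polymerase clamp, had medians of 67.1 RPKM in D0 and 51.4 RPKM in YC livers and was not called as deposited at -0.21, although it was called lower at -0.52 after rescaling. Of 12 G1 genes, 7 rose and 1 fell. Ccnd1, cyclin D1, rose from a median of 3.84 to 33.5 RPKM (log2 difference 2.74) and Ccnd3 by 2.36, both without overlap. Myc fell from 14.1, 17.3 and 19.8 RPKM to 4.51, 10.2 and 13.7 RPKM without overlap, a log2 difference of -0.78 ± 0.18 (SE, limma adjusted p = 0.00108). Vehicle livers were lower still, at 2.54 to 5.94 RPKM, and YC livers exceeded them by 1.10 (adjusted p = 3.69e-05). Cdkn1b, a cell cycle inhibitor, was not called at 0.08 ± 0.14 (SE).

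**Figure D3:**
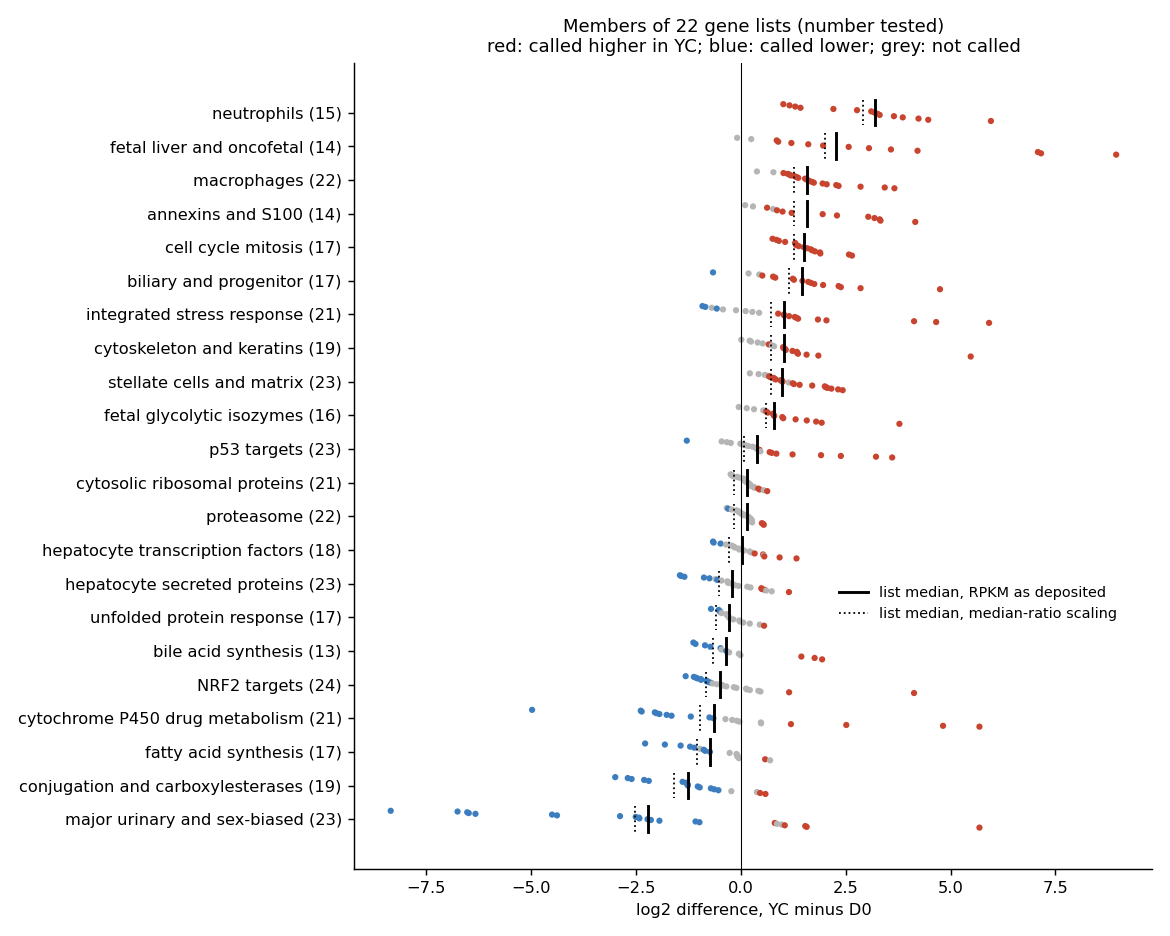
Each point is a tested member of a gene list, placed by its log2 difference YC minus D0, with the list median as a solid line (as deposited) and a dotted line (median-ratio scaling). Medians run from 3.19 for neutrophil genes to -2.22 for the major urinary and sex-biased list.

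Members of the integrated stress response changed in both directions. This is the pathway by which cells short of amino acids or with misfolded proteins make the factor Atf4 and switch on its targets. Of 21 members tested, 12 rose, 3 fell and 6 did not pass the test (median 1.03). A response element of such targets has the letters TGATGNAA, read on either strand. The 250 bases before the RefSeq start of 19 of the 21 genes were searched (RefSeq table of build GRCm38.p6), and 6 of them held a match, against 3.45% of 32851 promoters of that length. The 6 are counted by gene and the 3.45% by promoter entry. Members were listed as targets of this pathway, so the comparison is not a test of the element. A match is a description of the letters and not a measured binding site. The 4 genes of these 6 whose levels are described next are shown 5′ to 3′ on the gene's own strand, with matches in capitals. TTGCATCA is the same element on the opposite strand.
Asns: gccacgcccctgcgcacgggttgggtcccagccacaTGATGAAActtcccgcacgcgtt
Slc7a11: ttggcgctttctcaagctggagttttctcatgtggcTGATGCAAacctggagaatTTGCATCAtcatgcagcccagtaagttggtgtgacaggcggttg
Fgf21: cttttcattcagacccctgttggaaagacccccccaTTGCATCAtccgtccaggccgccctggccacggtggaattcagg
Atf3: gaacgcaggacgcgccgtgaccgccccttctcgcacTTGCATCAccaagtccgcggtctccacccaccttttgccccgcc
They lie at chr6:7693210-7693268, chr3:50443617-50443715, chr7:45615586-45615665 and chr1:191183400-191183479, all on the minus strand, and the first match starts 23, 66, 139 and 110 bases before the start site.

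Asns, asparagine synthetase, was almost silent in D0 livers, with 0.215, 0.427 and 0.470 RPKM as lowest, median and highest. It was tested through its day 28 values, since no D0 liver reached 0.5 RPKM. In YC livers it had 17.2, 74.6 and 87.1 RPKM, and in vehicle livers 1.71, 8.58 and 17.9 RPKM. YC and D0 livers did not overlap, and YC 4 was the lowest of the YC livers. The log2 difference was 5.92 ± 0.40 (SE, limma adjusted p = 5.72e-11), and YC minus vehicle was 2.85 (adjusted p = 5.31e-06).

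Slc7a11, the cystine importer that feeds glutathione synthesis and bears 2 matches, rose from 0.713, 2.91 and 4.05 RPKM to 16.9, 59.0 and 95.9 RPKM (log2 difference 4.13). Psat1, an enzyme of serine synthesis, rose by 4.66 and did not overlap with D0. Fgf21, a hormone that hepatocytes release in starvation, went from 4.92, 8.39 and 26.2 RPKM to 19.7, 51.4 and 81.1 RPKM with overlap at YC 4 (log2 difference 2.04). Atf3, the stress factor with the same element, had 8.49, 14.7 and 48.8 RPKM in D0 livers and 5.51, 9.07 and 16.0 RPKM in YC livers, and was not called at -0.69 (limma adjusted p = 0.0894). It was called lower at -1.0 after rescaling and at -0.90 without YC 6 and YC 7. The other 2 genes with a match, Chac1, which breaks down glutathione, and the lipoprotein receptor gene Vldlr, rose by 1.37 and 0.89. Vldlr lost its call after rescaling, at 0.64, and both lost it under quantile normalization, at 0.80 for Chac1 and 0.41 for Vldlr. Atf4 itself fell from 87.2, 121 and 135 RPKM to 65.9, 80.4 and 91.6 RPKM (log2 difference -0.57), and Ddit3, the factor CHOP, fell by 0.85. Cth, which makes cysteine, was not called at 0.44, and was called at 0.79 with YC 4 to YC 7 alone.

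Targets of NRF2 differed from both other groups, with more falls than rises against D0 livers and more rises than falls against vehicle livers. NRF2 is the factor that switches on glutathione and quinone-detoxifying genes when reactive molecules accumulate. Of 24 targets tested, 2 rose, 10 fell and 12 did not pass the test (median -0.50), and after rescaling 2 rose and 14 fell. With YC 4 to YC 7 alone 2 rose and 7 fell. Against vehicle livers 17 were higher in YC livers and 0 lower, where 44.6% of all genes were higher and 6.14% lower. After rescaling 12 were higher and 0 lower, where 18.6% of all genes were higher and 16.6% lower. Hmox1, heme oxygenase, had 792, 908 and 977 RPKM in D0 livers, 182, 519 and 775 RPKM in YC livers and 36.9, 103 and 139 RPKM in vehicle livers. The 3 groups did not overlap. The log2 difference was -0.95 ± 0.28 (SE, limma adjusted p = 0.00586) against D0 and 2.42 against vehicle (adjusted p = 6.61e-07).

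Gclc, the subunit of glutathione synthesis that carries out the reaction, had medians of 944, 478 and 180 RPKM in D0, YC and vehicle livers, and YC 4 lay inside the vehicle range (log2 difference YC minus D0 -1.07). Nqo1, a quinone reductase, was tightly held in D0 livers, at 242, 264 and 292 RPKM, and spread from 49.4 to 414 RPKM in YC livers. YC 6 and YC 7, at 336 and 414 RPKM, were above every D0 liver, and the other 5 YC livers were below all of them. Its difference of -0.95 became -1.53 without those libraries, and the call was lost with YC 4 to YC 7 alone, at -0.79, and without YC 3, YC 4 or YC 5. Srxn1, which repairs oxidized peroxiredoxins, showed the same spread, at 121 to 878 RPKM, and was not called at 0.47. Gstm1, a glutathione transferase with near-identical copies, fell by 0.81, a call lost with YC 4 to YC 7 alone, at -0.76, and without D0 3, YC 4 or YC 5. The ferritin gene Ftl1 was not called at -0.67, and was called lower at -0.99 after rescaling and at -0.91 without YC 6 and YC 7.

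**Figure D4:**
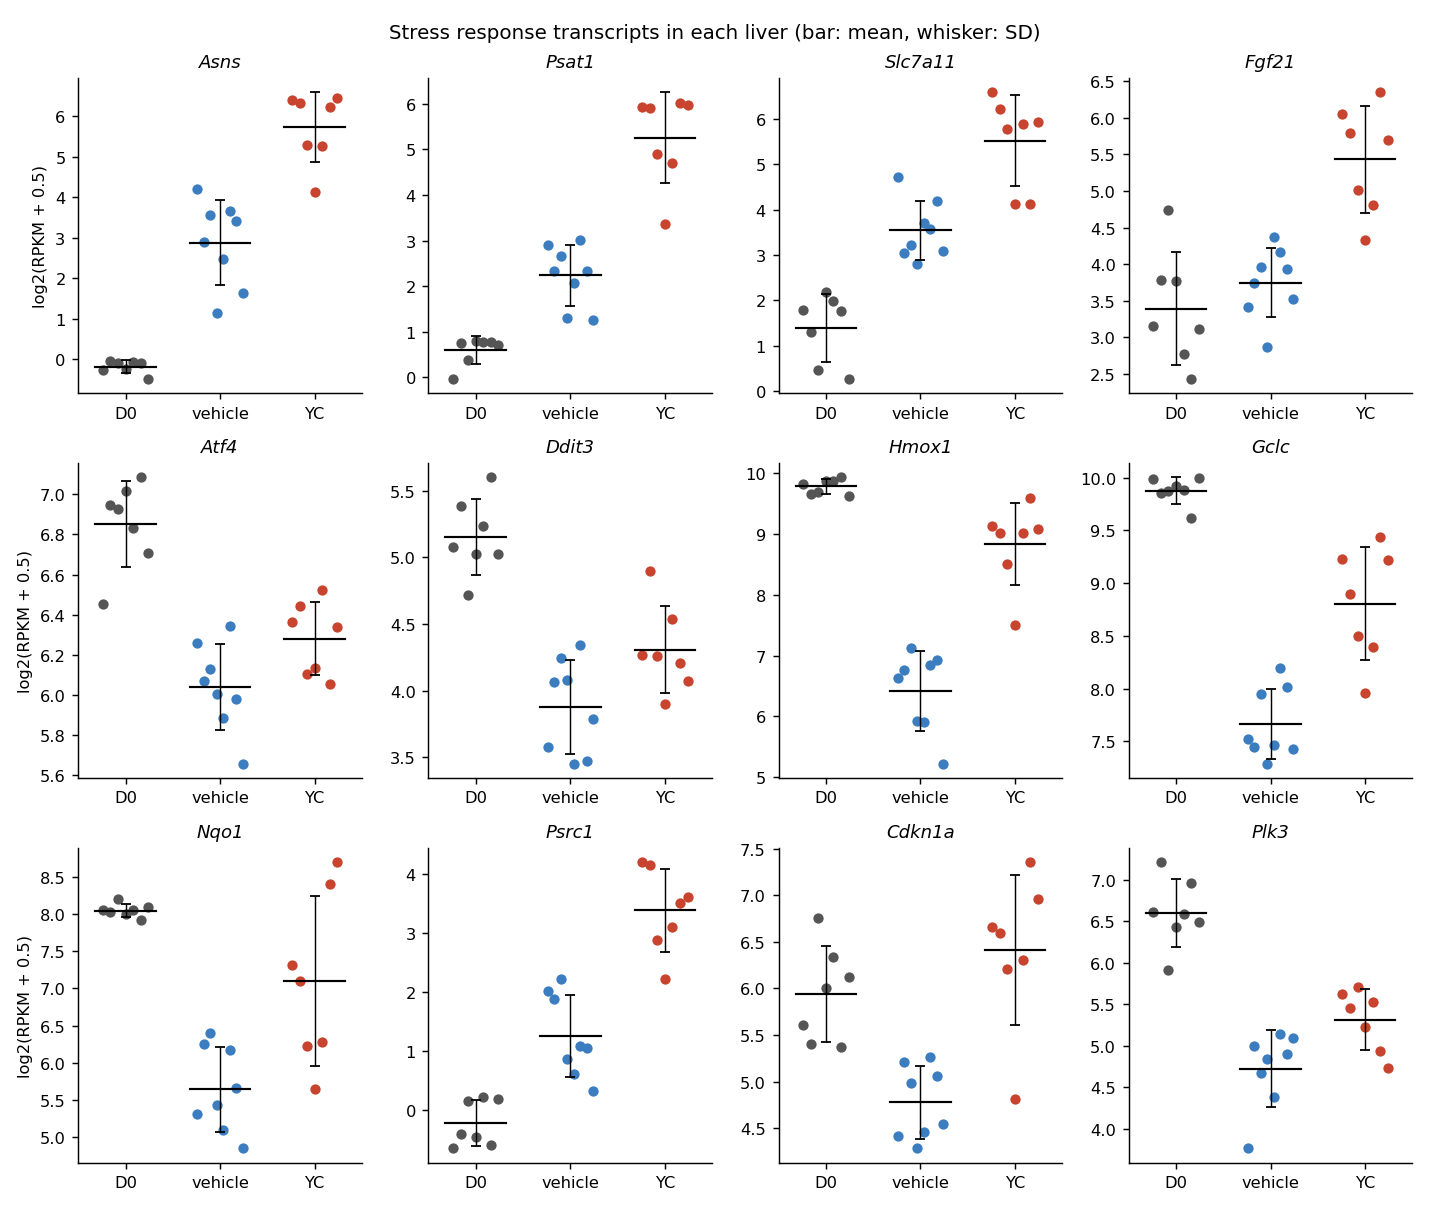
Each point is a liver, placed by log2(RPKM + 0.5), in D0 (7), vehicle (8) and YC (7) livers, with mean and SD. Asns, Psat1 and Slc7a11 lie higher in every YC liver than in any D0 liver, Hmox1 lies between vehicle and D0 livers, Gclc does so except for YC 4, which is inside the vehicle range, and Nqo1 spreads widely among YC livers.

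Targets of p53, the factor that halts division after DNA damage, gave a mixed picture against D0. Of 23 tested, 10 rose, 1 fell and 12 did not pass the test (median 0.39), and after rescaling 6 rose and 5 fell. The rises were near the shares over all genes, 41.2% as deposited and 26.9% after rescaling. Psrc1, a spindle gene, rose from 0.135, 0.251 and 0.658 RPKM to 4.16, 10.9 and 17.9 RPKM, and Phlda3, an inhibitor of the kinase Akt, by 3.22. Plk3, a stress kinase, fell from a median of 95.4 to 43.3 RPKM without overlap (log2 difference -1.29). Cdkn1a, the inhibitor p21, had 40.9, 63.8 and 108 RPKM in D0 and 27.7, 96.1 and 163 RPKM in YC livers and was not called at 0.47. It was called at 0.74 without YC 4, the lowest of them. Mdm2, which degrades p53, was not called at -0.24, and was called lower at -0.55 after rescaling. The abundant Ei24 was not called at -0.01 and was called lower at -0.33 after rescaling. Compared with vehicle livers, 20 of the 23 were higher in YC livers and 0 lower, against 44.6% and 6.14% of all genes. After rescaling 15 were higher and 1 lower, against 18.6% and 16.6%. As deposited, Cdkn1a was higher than in vehicle livers by 1.64 (limma adjusted p = 6.38e-05) and Mdm2 by 1.18 (adjusted p = 4.11e-06).

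The unfolded protein response adjusts chaperones in the endoplasmic reticulum. Of 17 of its genes, 1 rose and 4 fell (median -0.28), and after rescaling 0 rose and 11 fell (median -0.59), where 27.1% of all genes fell. The chaperone gene Hspa5 fell by 0.53 and Canx by 0.48. The call of Hspa5 rested on YC 6 and YC 7, at 223 and 208 RPKM against 342 to 406 RPKM in the other YC livers, and was lost without them, at -0.30. Calr was not called at -0.33, and was called lower at -0.64 after rescaling.

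Hepatocyte products changed in both directions. Of 23 secreted proteins, 4 rose, 6 fell and 13 did not pass the test (median -0.21), and after rescaling 1 rose and 10 fell. Without YC 6 and YC 7 the count was 10 higher and 6 lower, with a median of 0.32. Alb, albumin, had 32570, 44580 and 51560 RPKM in D0 livers and 14420, 22130 and 41030 RPKM in YC livers, with YC 4 inside the D0 range. Its log2 difference was -0.88 ± 0.22 (SE), and the call was lost under quantile normalization, at -0.30. Apoa2 fell from 7371, 8355 and 9368 RPKM to 2456, 3284 and 3982 RPKM, while Apoa1, its partner in high-density lipoprotein, rose from 3494, 3988 and 5491 RPKM to 7707, 8789 and 11490 RPKM. Neither overlapped between YC and D0 livers. Vehicle livers held 4483 to 9859 RPKM of Apoa2 and 7463 to 10880 RPKM of Apoa1. YC minus vehicle was -1.33 for Apoa2 (limma adjusted p = 2.42e-06) and -0.02 for Apoa1 (adjusted p = 0.904). Azgp1, a lipid-mobilizing glycoprotein, fell by 1.45. Ttr, the thyroid hormone carrier, was not called at -0.19 as deposited, and was called lower after rescaling, at -0.50, and without YC 6 and YC 7, at -0.38. Trf, transferrin, was not called at -0.14 and was called higher at 0.35 without YC 6 and YC 7, which held 2709 and 1675 RPKM against at least 6067 in the other YC livers.

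Of 18 transcription factors that keep hepatocytes differentiated, 5 rose and 3 fell, against 41.2% and 12.3% of all genes. Another 10 did not pass the test, and the list median was 0.02. After rescaling 2 rose and 7 fell (median -0.28), against 26.9% and 27.1% of all genes. With YC 4 to YC 7 alone 2 rose and 2 fell. Hnf4a, the central hepatocyte factor, had 112, 131 and 143 RPKM in D0 livers and 88.2, 124 and 136 RPKM in YC livers (log2 difference -0.14, limma adjusted p = 0.403), and was called lower at -0.45 after rescaling. Cebpa fell by 0.48, a call lost without D0 3, D0 4, D0 5, YC 1 or YC 5, at -0.39 to -0.45. Foxa3, which opens liver enhancers, rose by 1.33 and Rxra, the partner of many nuclear receptors, by 0.93. YC minus vehicle did not pass the test in either, at -0.30 and 0.17 (limma adjusted p = 0.468 and 0.473).

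Many drug-metabolizing enzymes fell. Of 21 cytochrome P450 and related genes, 11 fell and 4 rose (median -0.65), and 13 fell after rescaling. Cyp2c37, an enzyme of the tissue around the central vein (chromosome 19, 39992424 to 40012243), fell from 448.5, 609 and 853 RPKM to 9.61, 16.7 and 46.6 RPKM. The groups were far apart, with a log2 difference of -4.97 ± 0.34 (SE, limma adjusted p = 5.97e-11), and vehicle livers held 28.7 to 150 RPKM. Cyp2e1, which oxidizes ethanol and acetaminophen, fell by 1.77 and Cyp1a2 by 2.05. Cyp2a5 was not called, with medians of 5576 RPKM in D0 and 7019 RPKM in YC livers. Por, the reductase that supplies electrons to all of these enzymes, rose from 79.7, 103 and 116 RPKM to 156, 248 and 293 RPKM without overlap (log2 difference 1.2), while vehicle livers stayed at a median of 98.7 RPKM.

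Of 19 conjugating enzymes and carboxylesterases, 15 fell, 2 rose and 2 were not called (median -1.26), against 12.3% of all genes called lower. Ugt2b1, a glucuronyl transferase (chromosome 5, 86916638 to 86926530), fell from 149, 229 and 263 RPKM to 24.6, 32.4 and 60.9 RPKM (log2 difference -2.60). The carboxylesterase genes Ces3b and Ces1d fell, with differences of -2.99 and -2.30, as did Gstp1 at -0.71, a call lost without D0 3, at -0.63. Ces2a was not called at -0.23. Among the largest falls of all genes were also the sulfotransferase genes Sult3a1 (-4.50) and Sult2a8 (-4.32), the oxidase gene Hao2 (-3.05) and Hamp2, a relative of the iron hormone hepcidin (-3.53). In Hao2 and Hamp2 the groups overlapped, and YC 4 was the highest YC liver in each. Pcp4l1, a small calmodulin-binding protein, fell by 3.24.

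Of 16 glycolytic isozymes of fetal and dividing tissue, 12 rose and 0 fell (median 0.79), and after rescaling 7 rose and 1 fell. Pkm, the pyruvate kinase of fetal and dividing cells, rose from 11.5, 13.7 and 18.6 RPKM to 74.3, 253 and 343 RPKM, with vehicle livers at 28.3 to 96.7 RPKM (log2 difference YC minus D0 3.78). Ldha, lactate dehydrogenase A, rose by 1.31. Its YC minus vehicle difference was not called at -0.15 (limma adjusted p = 0.471) and was called lower at -0.49 after rescaling. Tpi1, a shared glycolytic enzyme, was not called against D0 at 0.14. Pck1, the entry enzyme of gluconeogenesis (chromosome 2, 173153048 to 173159273), rose from 11.9, 27.5 and 61.4 RPKM to 379, 709 and 917 RPKM. Vehicle livers held 274 to 1333 RPKM, and YC minus vehicle was -0.49 (limma adjusted p = 0.234). Fbp1, a later enzyme of the same pathway, was not called at -0.16.

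Of 17 fatty acid synthesis genes, 8 fell and 1 rose (median -0.73). Scd1, the main desaturase of liver, had 448, 770 and 1305 RPKM in D0 livers and 45.8, 107 and 638 RPKM in YC livers, with YC 4 and YC 5 inside the D0 range (log2 difference -2.28). Me1, which supplies NADPH, fell by 0.88 and Elovl5 was not called at -0.09. Of 22 genes of fatty acid oxidation and its regulator PPAR alpha, 11 rose and 2 fell (median 0.43), against 41.2% and 12.3% of all genes. After rescaling 6 rose and 5 fell, against 26.9% and 27.1%. Cpt1a, which brings fatty acids into mitochondria, rose by 1.16, and the carrier Fabp1 was not called at -0.08. Apoa4, an apolipoprotein of fasting liver and intestine, rose from 49.3, 69.7 and 148 RPKM to 559, 752 and 1275 RPKM (log2 difference 3.31).

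Of 13 bile acid synthesis genes, 3 rose and 6 fell (median -0.35). Cyp8b1, which sets the share of cholic acid, rose by 1.94 and Amacr by 1.44. Cyp7a1, the rate-limiting enzyme, rose by 1.76 as deposited, but the call was lost with YC 4 to YC 7 alone, at 1.61, where YC 6 and YC 7 held 7.19 and 5.46 RPKM and YC 4 and YC 5 held 63.3 and 46.7 RPKM. Scp2, a sterol carrier, fell by 0.35, a call lost with YC 4 to YC 7 alone, at -0.28, and Hsd3b7 was not called at -0.05. Of 18 transporters, 7 rose and 3 fell (median 0.10), against 41.2% and 12.3% of all genes. After rescaling 7 rose and 7 fell, against 26.9% and 27.1%. Slc10a1, which takes up bile acids, fell by 0.81 and Abcb4, which exports phospholipid into bile, rose by 0.98.

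Of 7 tyrosine catabolism genes apart from Fah, 0 rose and 3 fell (median -0.17). Qdpr, which recycles tetrahydrobiopterin, fell by 0.84. Hpd, the target of NTBC, had 836, 1095 and 1335 RPKM in D0 and 574, 799 and 1787 RPKM in YC livers (log2 difference -0.17, not called). Of 24 amino acid catabolism genes, 3 rose and 8 fell (median -0.35), and without YC 6 and YC 7 the counts were 5 and 5. Sds, serine dehydratase, rose by 2.19, Tdo2, which opens the tryptophan ring, fell by 1.3, and Gnmt was not called at -0.39 but was called lower at -0.70 after rescaling. Of 12 urea cycle and nitrogen genes, 4 rose and 1 fell (median 0.22), against 41.2% and 12.3% of all genes. After rescaling 1 rose and 3 fell (median -0.10), and without YC 6 and YC 7 as deposited 8 rose and 1 fell. Otc fell from 185, 208 and 262 RPKM to 56.5, 70.7 and 142 RPKM without overlap (log2 difference -1.40). The call of Glud1, higher by 0.25, ended under most alternatives and its direction turned to -0.07 after rescaling. Ass1 was not called at 0.32, and was called at 0.73 without YC 6 and YC 7.

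Genes that differ between male and female mouse livers were among the largest falls. In mice these genes follow growth hormone, and the Mup genes encode urinary pheromone carriers. Of 23 members tested, 5 rose, 16 fell and 2 did not pass the test (median -2.22), against 12.3% of all genes called lower. Mup16 (chromosome 4, 61515592 to 61519531) went from 117, 175 and 522 RPKM to 0, 0.0862 and 0.265 RPKM, and Mup3 from 484, 899 and 1578 RPKM to 17.8, 33.3 and 148 RPKM. Neither overlapped, and vehicle livers held 189 to 2820 RPKM of Mup3. Mup genes are near-identical copies whose reads may have been divided by the authors' counting, so the single values, such as -6.75 for Mup15, are uncertain. Mup20 was not called, at 0.86.

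The female-predominant genes Cyp2b13, Cyp2c69, Cyp2c40, Cyp3a44 and Cyp2b9 fell, with log2 differences of -5.61, -4.99, -3.06, -3.33 and -1.94. YC minus vehicle did not pass the test in Cyp2c69 (-1.49), Cyp2c40 (-0.66) or Cyp3a44 (0.98). In Cyp2b13 it was -1.06 (limma adjusted p = 0.0244). Cyp4a12a, which male livers express (chromosome 4, 115299046 to 115332815), was at most 0.411 RPKM in D0 livers and 19.1, 32.2 and 51.0 RPKM in YC livers. It was tested through its day 28 values. Its log2 difference was 5.69 ± 0.32 (SE, limma adjusted p = 3.3e-12), and its difference from vehicle livers did not pass the test (-0.21, adjusted p = 0.588), where all vehicle livers carry Y-linked transcripts. In YC 4 to YC 7, where Y-linked transcripts were at 0, Cyp4a12a was still 19.1 to 51.0 RPKM and higher than in D0 livers by 5.57 (adjusted p = 2.01e-09). Cyp2b13 was lower there by 5.35 (adjusted p = 9.5e-08), and 14 of the 23 members fell and 4 rose. The Y-linked gene Eif2s3y was higher in YC than D0 livers by 2.14 over all 7 YC livers, which rests on YC 1, YC 2 and YC 3, each of whose removal ended the call. Ddx3y, Kdm5d and Uty, called at 1.55, 0.70 and 0.86, rest on the same livers, and Kdm5d also lost its call after rescaling, at 0.63 (limma adjusted p = 0.0503).

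**Figure D5:**
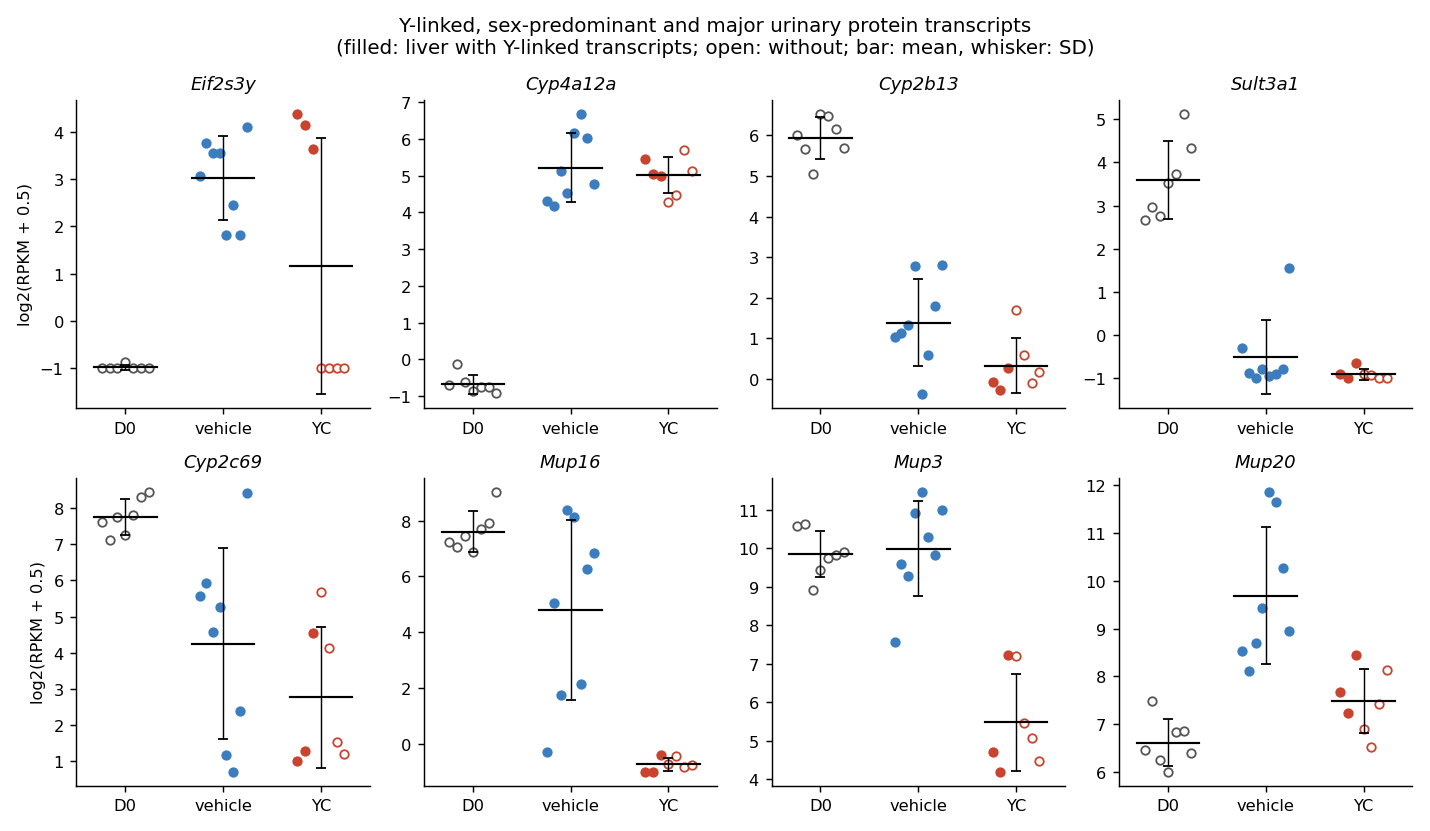
Each point is a liver, placed by log2(RPKM + 0.5), with filled points for livers with at least 1 RPKM of Y-linked transcripts and open points for the others, and with mean and SD. All 7 YC livers, open and filled, lie above the D0 livers in Cyp4a12a and below them in Cyp2b13, Sult3a1, Cyp2c69, Mup16 and Mup3.

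Most markers of neutrophils, macrophages and matrix-forming cells were higher in YC than in D0 livers, and their part in the other differences was not tested. In whole liver, more cells of a type and more RNA per cell cannot be told apart. All 15 neutrophil genes tested rose, against 41.2% of all genes, with a median of 3.19. Their summed level was 10.51 to 62.5 RPKM in D0, 266 to 864 RPKM in YC and 74.3 to 344 RPKM in vehicle livers. Against vehicle livers 9 were higher in YC livers and 0 lower, or 6 and 0 after rescaling, where 44.6% and 18.6% of all genes were higher. Mpo, the enzyme of neutrophil granules, was at most 0.0918 RPKM in D0 livers and 1.01 to 13.1 RPKM in YC livers, and S100a8 and S100a9 rose by 3.19 and 3.31. Lcn2, given above, is in this list and is also made by hepatocytes. Of 22 macrophage genes, 20 rose and 0 fell (median 1.59), against 41.2% and 12.3% of all genes. Their sum was 262 to 500 RPKM in D0, 708 to 1752 RPKM in YC and 1002 to 2915 RPKM in vehicle livers. Against vehicle livers 3 were higher in YC livers and 4 lower, or 2 and 9 after rescaling. The shares of all genes were 44.6% higher and 6.14% lower, or 18.6% and 16.6% after rescaling. Trem2, a receptor of lipid-laden macrophages, rose from 0.139, 0.405 and 0.777 RPKM to 8.66, 11.2 and 16.5 RPKM, and vehicle livers held 8.55 to 23.0 RPKM (YC minus vehicle -0.42, limma adjusted p = 0.0591). Lyz2, lysozyme, rose by 1.53, Clec4f, the Kupffer cell lectin, by 1.12, and Timd4, of resident Kupffer cells, was not called at 0.38.

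Of 23 stellate cell and matrix genes, 18 rose and 0 fell (median 0.99), against 41.2% and 12.3% of all genes. Their sums were 255 to 301 RPKM in D0, 343 to 852 RPKM in YC and 326 to 642 RPKM in vehicle livers. Against vehicle livers 6 were higher in YC livers and 0 lower, or 3 and 3 after rescaling. The shares of all genes were 44.6% higher and 6.14% lower, or 18.6% and 16.6% after rescaling. Col1a1, the collagen of scars, had 0.168, 0.578 and 1.21 RPKM in D0 livers and 1.33, 7.43 and 14.4 RPKM in YC livers, with YC 6 and YC 7 lowest (log2 difference 2.43). Loxl2, which crosslinks collagen, rose by 2.02 and Dcn, decorin, by 0.99. Lrat, the vitamin A store marker of quiescent stellate cells, was not called at 0.57, and was called at 0.83 without YC 4. Of 8 mesothelial genes, 6 rose and 0 fell, led by the protease inhibitor Slpi (3.50). Upk3b was not called at 1.09, and was called at 1.79 without YC 6 and YC 7. Of 3 pancreatic genes tested, Cela1 rose by 2.63 without overlap, while Cela2a reached 119 RPKM in YC 4 and under 1 RPKM elsewhere among YC and D0 livers.

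Counts for other cell types depended on the setting. Of 16 sinusoidal endothelial genes, 3 rose and 2 fell (median 0.09). After rescaling 1 rose and 4 fell, without YC 6 and YC 7 the counts were 4 and 4, and with YC 4 to YC 7 alone 1 and 1. Of these, Ehd3 was lower by 0.71 and Clec4g was not called at -0.11. Of 12 lymphocyte genes, 1 rose, which was Cd52 at 1.19, and 1 fell (median -0.22). After rescaling 1 rose and 2 fell, and without YC 6 and YC 7, or with YC 4 to YC 7 alone, 1 rose and 0 fell. Nkg7, of killer cells, was not called at 0.19. Of 10 erythroid genes, 2 rose and 2 fell (median 0.73), and without YC 6 and YC 7 the counts were 5 and 1 (median 1.66). Car2, a carbonic anhydrase also found in other cells, rose by 2.21, Tfrc, the transferrin receptor, fell by 1.17, and the globin gene Hbb-bs was not called at 0.71, with 1.72 to 202 RPKM in YC livers, and was called at 1.79 without YC 6 and YC 7.

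Among 24 acute phase genes, which hepatocytes make during inflammation, 13 rose and 3 fell (median 0.66), and after rescaling 9 rose and 3 fell. Saa1 and Saa2, serum amyloid A, divided the YC livers. Saa1 had 7.58, 10.8 and 20.8 RPKM in D0 livers, 3.77 and 5.33 RPKM in YC 7 and YC 6, and 363 to 737 RPKM in the other 5 YC livers. Its log2 difference was 3.40 over all YC livers and 5.33 without YC 6 and YC 7, and that of Saa2 was 4.04 and 6.21. The calls of both were lost with YC 4 to YC 7 alone, at 2.08 and 2.52. Il1rn, the interleukin 1 receptor antagonist, rose by 2.45 without overlap. Fgb, a fibrinogen chain, rose by 0.57, a call lost after rescaling, with YC 4 to YC 7 alone, and without D0 2, YC 1 or YC 2. Hpx, hemopexin, was not called at 0.23 and was called at 0.68 without YC 6 and YC 7. Of 27 coagulation and complement genes, 4 rose and 6 fell (median -0.23). Without YC 6 and YC 7 the counts were 11 and 4 (median 0.21), with YC 4 to YC 7 alone 3 and 3, and after rescaling 3 and 10. As deposited C6 was higher by 1.57, Mbl2 was lower by 1.12 and C3 was not called at -0.40.

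Of 20 interferon and antigen presentation genes, 10 rose and 2 fell (median 0.52), against 41.2% and 12.3% of all genes. After rescaling 4 rose and 2 fell, against 26.9% and 27.1%. Against vehicle livers 0 were higher in YC livers and 13 lower (median -0.78), where 44.6% of all genes were higher and 6.14% lower. After rescaling 0 were higher and 14 lower, where 18.6% of all genes were higher and 16.6% lower. Usp18, an interferon-induced regulator, rose from 1.93, 2.97 and 3.47 RPKM to 12.9, 17.1 and 20.03 RPKM. B2m, the light chain of class I molecules, fell from 1493, 1620 and 1819 RPKM to 473, 908 and 1117 RPKM without overlap (log2 difference -1.03). Vehicle livers had 1308 to 2918 RPKM of B2m, and H2-D1, a class I heavy chain, was not called at 0.07.

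In the insulin-like growth factor system, 7 of 15 genes rose and 2 fell (median 0.87), against 41.2% and 12.3% of all genes. After rescaling 7 rose and 4 fell, against 26.9% and 27.1%. The binding protein gene Igfbp1 rose by 3.36, from a median of 41.5 to 444 RPKM, and Igfbp4 by 0.87. Igf1, the adult ligand, was not called at -0.28 and was called lower at -0.59 after rescaling. Ghr, the growth hormone receptor, fell from 56.7, 69.8 and 81.3 RPKM to 23.7, 26.7 and 72.5 RPKM, with YC 4 inside the D0 range (log2 difference -0.97).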

How the data were processed

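Polyadenylated RNA of 22 flash-frozen livers was sequenced. The authors deposited 1 table of RPKM values with 1 column per library. Per the submitters' processing notes, TopHat 1.4.1 and Cufflinks 1.3.0 were used with the mouse build mm10. Annotation, strand use and filters are not stated there, so antisense and near-identical genes cannot be separated. The table has 18716 rows, of which 27 have date-like names. Coordinates are GENCODE M21 whole-gene spans of the same build.

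Groups come from the titles. Nothing says that replicates are separate animals, and p-values then measure a spread that may in part be technical. Depth came from the steps of low values. Whole reads were recovered in all libraries for 25.5% of 1348 low genes (tolerance 0.05 reads), too few for a count test. The 12537 genes that reached 0.5 RPKM in 7 or more libraries were fitted as log2(RPKM + 0.5) in limma 3.58.1 (lmFit, eBayes with trend and robust, statmod 1.5.0, R 4.3.3). All 22 libraries entered 1 model of 3 groups, with two-sided Benjamini-Hochberg adjusted p under 0.05 as a call. Fold changes are on this scale, which understates those of low genes. Fah was tested by exact permutation of 7 against 7 livers. The fit was tested on simulated data. Python 3.11.15 with numpy 2.4.6, pandas 2.3.3 and matplotlib 3.10.9 did the rest.

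Members and lists were chosen with earlier results of these data known. The 53 lists hold 876 genes. The rule named Fah, the 12 largest rises and falls called under both scalings with a group mean of at least 5 RPKM (2 Mup genes at most, no predicted symbols), and from each list the called gene of smallest adjusted p, the most abundant called and the most abundant uncalled gene. Some genes that the rule names are not reported here. Other genes were named after their values were seen, among them Dlk1, Hmox1, Nqo1, Cdkn1a, Psat1, Myc, Apoa1, Apoa2, Por, Saa1 and Ghr. Alternatives were median-ratio scaling, quantile normalization, equal totals, pseudocounts of 0.1 and 1, no filter, a mean of at least 5 RPKM, array weights, a replicate block, the 2 groups alone and omitted libraries.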

Additional observations from a re-analysis of the deposited data

Results flagged for a closer look

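The 172 named genes in 2 groups of 7 livers gave 344 gene and group pairs. In 18 of these a liver lay far from the other 6 on the log2(RPKM + 0.5) scale, past Dixon's critical value. Chance flags about 1 in 20 such pairs, so a number near this comes by chance.

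Among YC livers, YC 4 was high in the pancreatic elastase Cela2a, at 119 RPKM, and low in Fgfbp1, at 14.4 RPKM. YC 5 was high in the helicase subunit Mcm6, at 24.4 RPKM. YC 7 was high in Ei24, at 130 RPKM, and low in the ATP synthase subunit Atp5b, at 767 RPKM. YC 3 was high in Sult3a1, at 0.139 RPKM.

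Among D0 livers, several flags were at levels near 0. These were Dlk1 in D0 5 (0.0344 RPKM), Rbp2 in D0 6 (0.198 RPKM), Spink1 in D0 4 (0.371 RPKM), Fgfbp1 in D0 6 (0.207 RPKM), Cyp4a12a in D0 2 (0.411 RPKM) and the Y-linked Eif2s3y in D0 4 (0.0454 RPKM). Sprr1a reached 1.52 RPKM in D0 5, against at most 0.144 in the others. D0 3 was low in Ugt2b1, at 149 RPKM, and in Tfrc, at 37.6 RPKM. D0 6 was low in Gclc, at 785 RPKM, D0 2 was low in Fgb, at 1108 RPKM, and D0 1 was high in Glud1, at 448 RPKM.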

How the results depend on the processing

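The 6699 calls of YC minus D0 ranged from 6254 to 6856 when a replicate was left out, with 4726 to 5386 higher and 1372 to 1646 lower, and were 7072 without YC 6 and YC 7, 8356 with array weights and 5248 with YC 4 to YC 7 alone. The split by direction depended on the scaling, with 3372 higher and 3401 lower after median-ratio scaling and 2916 and 3757 after quantile normalization. Median-ratio scaling gave 2823 and 2644 with YC 4 to YC 7 alone and 3680 lower without YC 6 and YC 7, settings chosen after seeing the data. A minimum mean of 5 RPKM, which tests fewer genes, gave 3560 calls, 2572 higher and 988 lower. YC minus vehicle had 6357 calls, 5587 higher and 770 lower, with 5609 to 6967, 5029 to 6042 and 580 to 925 when a replicate was left out. It had 2336 higher and 2076 lower after median-ratio scaling, 2257 and 2109 after quantile normalization, 1391 lower with array weights, and 3816 calls, 3210 of them higher, at a mean of at least 5 RPKM. Fah stayed higher in YC livers in each alternative run (1.87 to 2.48 without a replicate).

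Of 172 named genes, 155 kept call and direction after median-ratio scaling, 157 with YC 4 to YC 7 alone and 159 without YC 6 and YC 7. Reversals were Trf at 0.35 without YC 6 and YC 7, Glud1 at -0.07 after median-ratio scaling and Eif2s3y at -0.02 with YC 4 to YC 7 alone. Correlations of same-numbered livers ran from -0.12 to 0.11, so the numbers did not pair them, and 0 of 7 livers correlated best with its own number. The replicate block gave 6486 calls. A fit of only livers with Y-linked transcripts could not be run for YC minus D0, since no D0 liver has them. Low genes are limited by depth, and precision rests on the spread between livers. The cause of the changed calls was not tested.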

Other observations

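Medians of 3 housekeeping lists lay between 0.16 and 0.25, the median of all genes, and the balance of their few calls turned with the scaling. Of 21 cytosolic ribosomal proteins, 3 rose and 0 fell (median 0.16), with Rpl8 at 0.42, and after median-ratio scaling 0 rose and 2 fell. Of 22 proteasome genes, 3 rose and 1 fell (median 0.16), with Psmb4 at 0.50, and after median-ratio scaling 0 rose and 5 fell. Of 21 respiratory chain genes, 7 rose and 1 fell (median 0.25), with the ATP synthase gene Atp5b at 0.47, and after median-ratio scaling 0 rose and 5 fell. Without YC 6 and YC 7 the counts were 1 and 3 for ribosomal proteins and 1 and 5 for the proteasome. Rpl8, Psmb4 and Atp5b were not called after median-ratio scaling, and Rpl8 and Psmb4 also lost their calls without YC 6 and YC 7 and with YC 4 to YC 7 alone. Of 10 pentose phosphate and NADPH genes, 1 rose and 3 fell (median -0.28), and 1 and 1 with YC 4 to YC 7 alone. Of 22 sterol synthesis genes, 2 rose and 3 fell (median 0.18), with 9 and 0 without YC 6 and YC 7 and 1 and 0 with YC 4 to YC 7 alone. Of 15 pericentral genes, 3 rose and 5 fell (median -0.03), and of 16 periportal genes 7 rose and 3 fell (median 0.42), and 5 and 5 after median-ratio scaling. These stand against 41.2% of all genes called higher and 12.3% lower, or 26.9% and 27.1% after median-ratio scaling. The periportal rises were near the share over all genes.

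Signalling lists were mixed. Their counts stand against 41.2% of all genes called higher and 12.3% lower, or 26.9% and 27.1% after median-ratio scaling. Of 17 YAP targets, 9 rose and 0 fell (median 0.56), and after median-ratio scaling 6 rose and 2 fell. The receptor gene Axl rose by 1.70, and the matricellular Cyr61 was not called at 0.56. Of 12 Wnt feedback targets, 2 rose and 1 fell (median 0.06), and 2 and 4 after median-ratio scaling, with Ccnd1 the most abundant of those called. Of 14 Notch genes, 6 rose and 3 fell (median 0.33), and after median-ratio scaling 2 rose and 4 fell (median 0.07). Of 16 immediate early genes, 3 rose and 6 fell (median -0.37), with Ier2 lower by 1.21 and Jund not called at 0.41. Of 13 chemokine genes, 5 rose and 1 fell, of 17 iron genes 4 rose and 2 fell (4 and 4 after median-ratio scaling), and of 7 metallothionein and zinc genes 1 rose and 3 fell. Of 21 claudin and junction genes, 9 rose and 1 fell (median 0.40), with the rises near the share over all genes.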
